A study of Mus musculus with 6 samples.

Results

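Secretory granules of islet cells fuse with the plasma membrane through a conserved set of proteins, and the transcripts of 43 genes of that set were followed in islets of mice with a Klf4 deletion in alpha cells. The genes, SNAREs, synaptotagmins, Rab GTPases and proteins that dock or prime granules, were taken by symbol from a given list, and all 43 were found among the 55536 genes of the count table. Polyadenylated RNA of whole isolated pancreatic islets of the mouse strain labelled C57B1/6J was sequenced in 6 libraries. The 3 control libraries came from mice of genotype Klf4+/+;Gcg-iCre and the 3 knockout libraries from Klf4fl/fl;Gcg-iCre mice, so both groups carried the Cre recombinase, which is driven by the glucagon gene and acts in alpha cells. Age, sex and the number of animals per library are not given in the sources used here, and no treatment is named. Values of single libraries are listed below in the order of replicates 1, 2 and 3.

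A SNARE protein of the granule (a VAMP) zips together with a syntaxin and a SNAP protein of the plasma membrane, and this pulls the membranes into fusion. Munc18 proteins hold and guide syntaxin, Rab3 and Rab27 with their effectors tether granules, UNC13 and CAPS proteins prime them, and synaptotagmins and Doc2 proteins sense calcium or shape the fusion pore. In islets this machinery releases insulin, glucagon and somatostatin, and beta cells are the main cell type of mouse islets. Fewer cells of a type and less RNA per cell cannot be told apart in bulk libraries.

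The libraries held between 101277200 and 110243918 counts. On the first principal component, which held 54.0% of the variance, knockout replicates 1, 2 and 3 lay at 62.5, 20.2 and -7.00 and the controls between -25.8 and -24.3, so knockout replicate 1 stood farthest apart. Klf4 itself overlapped between the groups, at 2015 to 3148 normalized counts in controls and 2277 to 2540 in knockouts, a log2 difference of -0.17 with an SE of 0.15 (DESeq2 adjusted p = 0.774). Every control library held Xist and 0 counts of Ddx3y, Uty, Eif2s3y and Kdm5d, and every knockout library the reverse apart from 12.4 to 30.2 normalized counts of Xist. Genotype and these sex-linked transcripts therefore divide the libraries identically and cannot be told apart in any comparison below. Of the marker lists, 3 of 6 alpha-cell genes (Gcg, Ttr and Irx2) were lower with a DESeq2 adjusted p under 0.05, although the groups of Irx2 overlapped. Irx1 at -0.37 lay below the controls without overlap but did not pass, and Gc and Slc7a2 overlapped, at 0.0025 and 0.03. The summed level of the 6, nearly all of it Gcg, ran from 25617 to 37670 RPKM (reads scaled to exon length and to library total) in controls and from 19436 to 23487 in knockouts. None of the 8 acinar genes passed, although their sum ran from 3569 to 7218 RPKM in controls and from 9332 to 12864 in knockouts without overlap. Of the 9 beta-cell genes 1, Nkx6-1, was lower (log2 fold change -0.23, DESeq2 adjusted p = 0.0314), and Mafa at -0.31 and Slc2a2 at -0.24 lay below the controls without overlap but did not pass. Ucn3 at -0.16 and Pdx1 at -0.13 overlapped and did not pass. Ins1, Ins2, Iapp and G6pc2 had positive values between 0.02 and 0.16, and the summed beta-cell level overlapped, at 150369 to 167019 RPKM in controls and 164190 to 168036 in knockouts. All 5 mesenchymal genes lay above the controls without overlap, 4 of them past the adjusted threshold, and their sum was 55.0 to 73.2 RPKM in controls and 104 to 113 in knockouts. The part of these cell types in the results on exocytosis genes was not tested.

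KLF4 binds GC-rich DNA, and the start regions of the genes were searched for the letters GGGTGTG and GGGCGTG, short forms of the sequence that Krüppel-like factors recognise, on both strands. The strings differ in 1 letter and so never match at the same place. RefSeq windows on GRCm38.p6, from 250 bases before to 50 after a start, were at hand for 31 of the 43 genes. The letters occurred in 7 of their 37 windows (18.9%), each of another gene, and in 15.5% of all 32851 windows. The 250 bases before the start are printed for Sytl4, the gene with the clearest difference below, and for the genes of syntaxin 1A, Munc18-2 and Rab3D, whose windows held the letters more than once, as did that of Ptprn2, not printed. They run 5′ to 3′ on the strand of the gene, and capitals mark the matches, which are a description of the letters and not of binding. CACACCC and CACGCCC are the same strings read from the other strand.
Sytl4, chrX:133981813-133982062, minus strand: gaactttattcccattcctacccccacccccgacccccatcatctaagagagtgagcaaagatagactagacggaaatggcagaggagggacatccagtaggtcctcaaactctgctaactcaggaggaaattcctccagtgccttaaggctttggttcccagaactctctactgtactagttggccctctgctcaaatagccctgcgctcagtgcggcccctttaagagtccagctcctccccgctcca
Stx1a, chr5:135023232-135023481, plus strand: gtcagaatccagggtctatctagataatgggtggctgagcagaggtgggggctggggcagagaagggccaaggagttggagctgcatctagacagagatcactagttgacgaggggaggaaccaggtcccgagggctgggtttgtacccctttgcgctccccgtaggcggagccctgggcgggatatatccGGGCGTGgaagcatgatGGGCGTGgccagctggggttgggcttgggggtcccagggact
Stxbp2, chr8:3630859-3631108, plus strand: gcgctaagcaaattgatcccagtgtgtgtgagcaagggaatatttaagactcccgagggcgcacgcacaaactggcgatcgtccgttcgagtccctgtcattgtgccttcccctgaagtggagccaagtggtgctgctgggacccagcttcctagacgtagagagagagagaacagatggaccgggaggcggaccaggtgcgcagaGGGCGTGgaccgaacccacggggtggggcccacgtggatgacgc
Rab3d, chr9:21918184-21918433, minus strand: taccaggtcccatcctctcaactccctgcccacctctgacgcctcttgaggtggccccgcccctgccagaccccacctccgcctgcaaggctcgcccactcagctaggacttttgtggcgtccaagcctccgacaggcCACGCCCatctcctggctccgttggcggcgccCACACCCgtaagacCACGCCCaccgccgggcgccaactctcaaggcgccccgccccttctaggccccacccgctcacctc
Sytl4 held no match in its window, which says only that these letters are not there. Stx1a held 2, at 59 and 42 bases before the start, and Rab3d held 3, at 112, 80 and 66 bases before it. Stxbp2 held 1 at 44 bases before the start and another, not printed, at base 8 after it. The values of all 4 genes follow below, and the 3 with matches did not pass the test of the knockout against the control.

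Per length of exon, the machinery of these islets was dominated by a few genes, in controls and knockouts alike. Syt13, a synaptotagmin that lacks the calcium-binding residues of its relatives, had the highest level of the 43, at 316 ± 7.85 RPKM in controls and 347 ± 10.7 in knockouts (± is the SD over 3 libraries for levels and the SE for log2 fold changes, here and below). Next came Cplx2, a complexin that clamps and activates SNARE complexes, with 175 ± 3.90 and 169 ± 1.81 RPKM. The granule membrane phosphatase-like proteins Ptprn (IA-2) and Ptprn2 (phogrin), at 150 ± 8.97 and 133 ± 12.4 RPKM in controls, overlapped each other's range in the control libraries. Rab27a, Sytl4, Vamp2 and Syt7 had means between 54.5 and 74.2 RPKM over the 6 libraries. At the other end, Sytl2, Rab27b and Slc18a2 had means between 0.438 and 0.465 RPKM, with ranges that overlapped one another. The spread from the highest to the lowest gene was thus far wider than any difference between genotypes. Exon length was taken over all annotated isoforms, so a gene with long rare exons is placed too low.

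**Figure D1:**
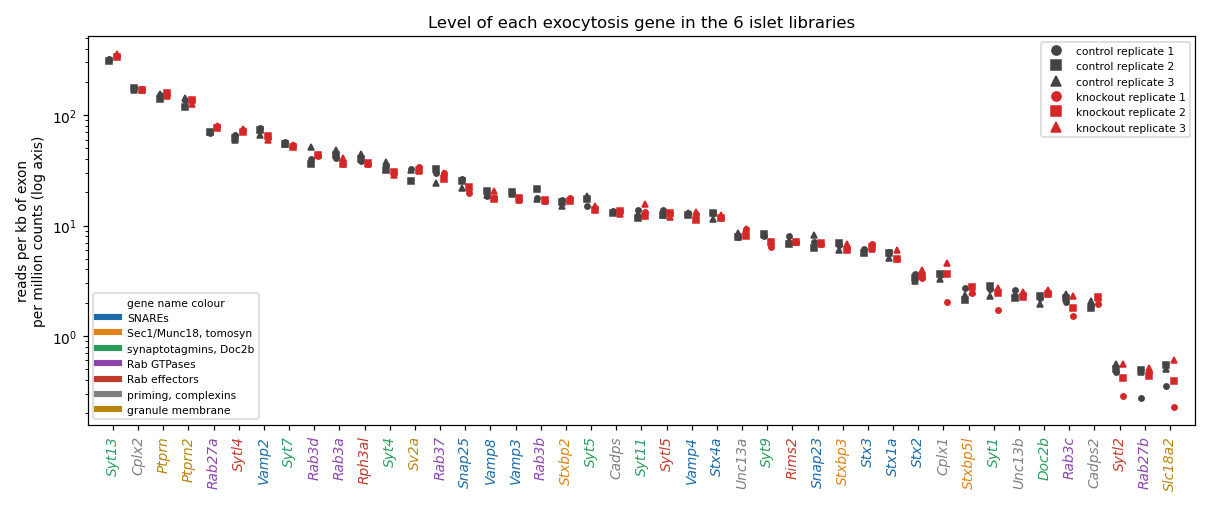
Level of the 43 exocytosis genes in RPKM, reads scaled to exon length and library total (log axis), ordered by the mean of the 6 libraries; each point is 1 library, grey for control and red for knockout. Syt13 is highest at 316 and 347 RPKM, and Sytl2, Rab27b and Slc18a2 lie near 0.4 RPKM; for most genes the 6 points lie close together.

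Only 1 of the 43 genes, Sytl4, passed an adjusted p of 0.05 in DESeq2, and it was higher in the knockouts. That share of 2.33% stood beside 2.19% of all genes tested (1.53% higher and 0.657% lower), near the background. The share depended on single libraries: it was 14% beside 6.28% of all genes without control replicate 3, 6.98% beside 2.49% without control replicate 1, 4.65% beside 2.25% without knockout replicate 2, and 0% beside 0.88% and 1.49% without knockout replicates 1 and 3. At an unadjusted p under 0.05 there were 11 genes, 3 higher and 8 lower, or 25.6% of the 43; the share was 9.03% of all genes (5.2% higher, 3.83% lower), 12.2% of genes with a mean of at least 50 normalized counts, and 12.9% of those with at least 1000, a level that 39 of the 43 reached. The groups did not overlap for 15 genes, 6 above and 9 below the controls, which is 34.9% against 18.0% of genes with a mean of at least 50 (9.42% above, 8.54% below) and 19.2% of those with at least 1000. The edgeR quasi-likelihood test called 0 of the 43 and 0.115% of all genes, with 10 of the 43, against 9.48% of all genes, at an unadjusted p under 0.05.

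The differences in whole islets were small throughout. Log2 fold changes of the 43 genes ran from -0.29 (Sytl2) to 0.21 (Sytl4) with a median of -0.05, and 28 were negative (65.1%); among the 15811 genes averaging 50 or more normalized counts the median was -0.0066 and 51.9% were negative. The 95% confidence interval lay within a 1.5-fold change in either direction for 40 of the 43 genes and within a 2-fold change for all 43. The 3 wider intervals were those of the low genes Rab27b, Sytl2 and Slc18a2. These bounds hold for RNA of whole islets, and a change within alpha cells, where the deletion acts, was not measured apart. The summed level of the 43 genes ran from 1470 to 1533 RPKM in controls and from 1504 to 1532 in knockouts, so the groups overlapped for the set as a whole. Leaving out 1 library moved the log2 fold change by over 1.5 times, or turned it, in 31 of the 43 genes. The other 12, Snap25, Vamp2, Vamp3, Stx3, Stxbp2, Syt7, Syt9, Syt13, Doc2b, Rab27a, Sytl4 and Cplx2, moved by less.

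**Figure D2:**
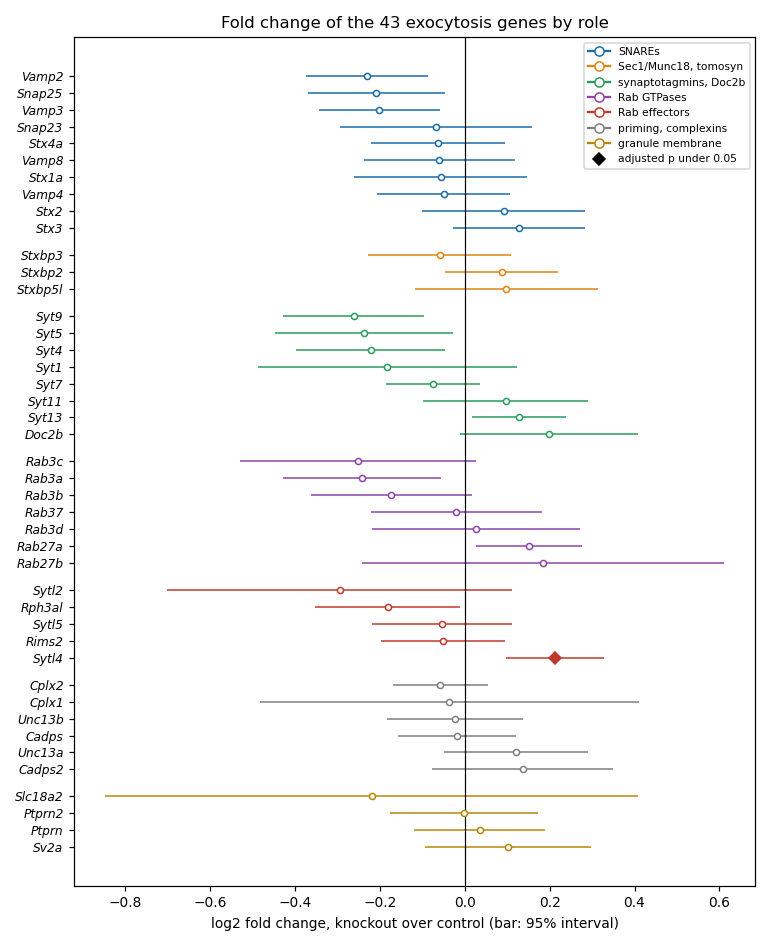
Log2 fold change of knockout over control for each of the 43 genes, by role, with 95% confidence intervals from DESeq2 (3 libraries per genotype). Sytl4 at 0.21 is the filled diamond, the only gene with an adjusted p under 0.05; the others lie between -0.29 and 0.20.

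Among the SNAREs, the neuroendocrine pair Snap25 and Vamp2 lay lower in every knockout library, though neither passed the test over all genes. Snap25, the plasma membrane SNARE cut by botulinum toxin A, had 18012, 17880 and 16083 normalized counts in controls and 13950, 15975 and 15064 in knockouts. The highest knockout value lay just under the lowest control value, and the log2 difference was -0.21 with an SE of 0.08 (DESeq2 adjusted p = 0.202). Vamp2, the main granule SNARE, was at 29666, 29400 and 27289 in controls and at 24430, 25968 and 23247 in knockouts. Its groups were clearly apart, with a log2 fold change of -0.23 ± 0.07 and an adjusted p of 0.0689 that fell short of the threshold in DESeq2. Vamp2 passed in 3 of 12 alternatives, with the replicate number as a block (adjusted p = 0.0396), without control replicate 3 (0.00203) and without knockout replicate 2 (0.0291), and its adjusted p was between 0.00203 and 0.413 over the 12. Snap25 passed in 1 of 12, without control replicate 3, with an adjusted p between 0.0106 and 0.809.

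Vamp3, the broadly expressed relative of Vamp2, was at 5734, 6171 and 5955 normalized counts in controls and 5136, 5395 and 5008 in knockouts, again without overlap (log2 fold change -0.20 ± 0.07 SE, DESeq2 adjusted p = 0.140). Vamp4, which serves traffic at the Golgi, and Vamp8, the SNARE of acinar zymogen granules and of lysosomal fusion, overlapped between the genotypes. Vamp8 was at 4313, 4978 and 4713 in controls and at 4311, 4279 and 4845 in knockouts, and the 95% interval of its change ran from -15.2% to 8.51%, while the acinar marker genes had log2 fold changes between 0.98 and 1.26. Of the 4 VAMP genes, Vamp2 made up 58.2 ± 1.74% of the summed RPKM in controls and 56.2 ± 2.05% in knockouts, with overlapping ranges.

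The syntaxins, the plasma membrane SNAREs that pair with SNAP25, showed no common direction. Stx1a, the syntaxin of regulated insulin release, was at 1545, 1573 and 1466 normalized counts in controls and at 1377, 1405 and 1627 in knockouts. These ranges overlapped, and the interval of the change ran from -16.5% to 10.8%. Stx3 was at 3590, 3367 and 3542 in controls and 4006, 3854 and 3610 in knockouts, above the controls but by 0.13 ± 0.08 on the log2 scale (DESeq2 adjusted p = 0.589). Stx2, Stx4a and the ubiquitous Snap23 overlapped, with log2 fold changes of 0.09, -0.06 and -0.07, that of Snap23 turning to 0.07 without control replicate 3. Stx2 went to 0.03 without knockout replicate 3, and Stx4a ran from -0.03 without control replicate 2 to -0.10 without control replicate 3. Stx4a was the most abundant syntaxin of the 4 per length, at 12.4 ± 0.844 RPKM in controls, against 5.48 ± 0.317 for Stx1a. In all, 8 of the 10 SNARE genes had a negative fold change, beside 51.9% of genes with a mean of at least 50. Of the 8, 3 had an unadjusted DESeq2 p under 0.05 and 0 passed the adjusted threshold, where 3.83% of all genes were lower at that unadjusted p. All 10 SNARE genes averaged at least 1000 normalized counts. At that level 12.9% of genes had such an unadjusted p in either direction, against 9.03% of all genes. The summed SNARE level was 189, 185 and 174 RPKM in the controls and 163, 166 and 167 in the knockouts, without overlap, and Vamp2 alone went from a mean of 72.3 to 61.8 RPKM. Of the other role groups, the sum of the priming factors and complexins lay narrowly lower in RPKM, at 200.2 to 207 against 197 to 199.9. In normalized counts that sum overlapped, with control replicate 1 at 128276 and knockout replicate 1 at 128907. The sum of the Rab effectors lay higher, at 122 to 127 against 128 to 131 RPKM, and did not overlap in normalized counts either.

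**Figure D3:**
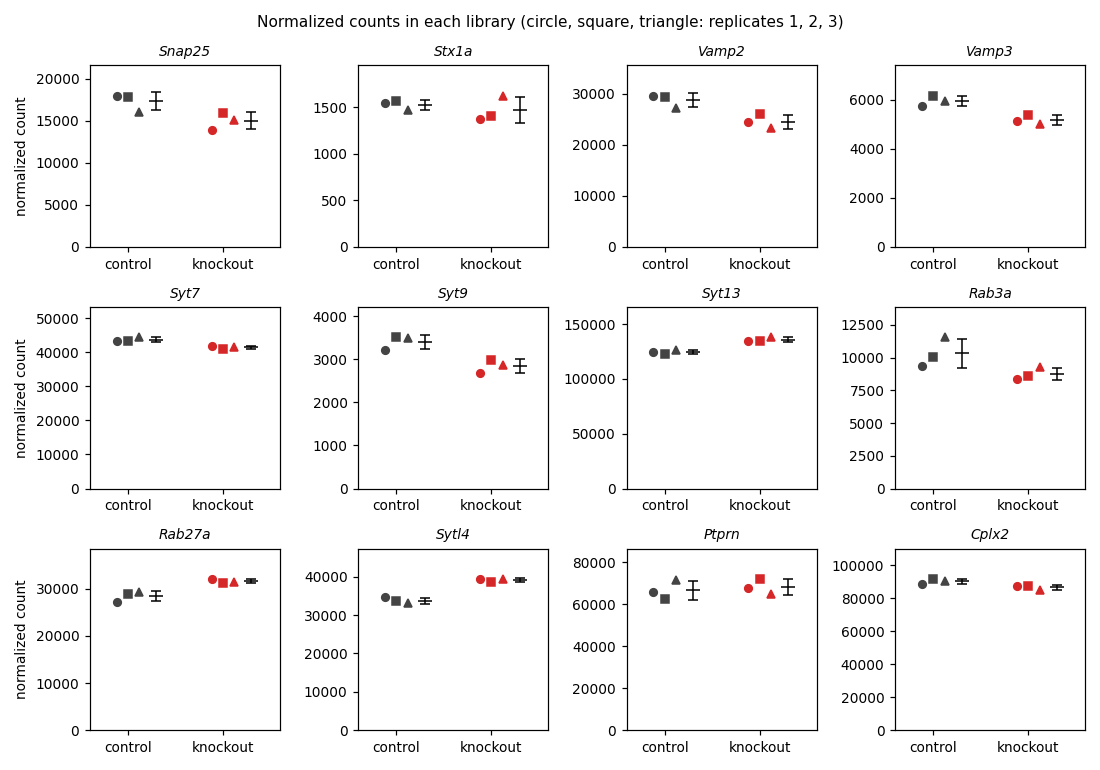
Normalized counts of 12 exocytosis genes in each library; circles, squares and triangles are replicates 1, 2 and 3, and the bar beside each group is the mean ± SD (n = 3). Vamp2, Vamp3, Snap25, Syt9 and Rab3a lie lower in every knockout library, Syt13, Rab27a and Sytl4 higher, and Stx1a and Ptprn overlap.

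The Munc18 proteins bind syntaxins, and tomosyns compete for them. Stxbp2, the Munc18-2 gene, was at 7249, 7083 and 6768 normalized counts in controls and 7630, 7341 and 7443 in knockouts. The knockout values lay just above, by 0.09 ± 0.07 on the log2 scale (DESeq2 adjusted p = 0.720). Stxbp3 (Munc18-3) and Stxbp5l, which encodes tomosyn-2, an inhibitor of insulin release, overlapped between the groups, at -0.06 and 0.10. Without control replicate 2 these values were -0.0035 and 0.02, and that of Stxbp5l was 0.17 without control replicate 1.

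The 8 genes of synaptotagmins and Doc2b fell on both sides of the controls, and 0 passed the adjusted threshold. Syt7, a high-affinity calcium sensor of insulin and glucagon release, was at 43385, 43237 and 44441 normalized counts in controls and at 41874, 41065 and 41516 in knockouts. The groups did not overlap, but the change was slight, with an interval from -12.1% to 2.57%. Syt9, a fast calcium sensor of dense-core granules, was at 3223, 3514 and 3494 in controls and 2672, 2991 and 2872 in knockouts. Its log2 fold change of -0.26 ± 0.09 (SE) had an adjusted p of 0.0764 in DESeq2 and of 0.0338 when control replicate 1 was left out, the 1 of 12 alternatives in which it passed, with 0.509 as the highest. Syt5 was at 3606, 4320 and 4736 in controls and 3562, 3490 and 3692 in knockouts, with control replicate 1 inside the knockout range. Without that library its log2 fold change went from -0.24 (adjusted p = 0.324) to -0.34 (adjusted p = 0.00655), and in the other 11 alternatives it did not pass. Syt4, which shares 14.5% of its exon bases with an antisense gene, was also lower in each knockout library, at -0.22 ± 0.09 (DESeq2 adjusted p = 0.223). Without control replicate 3, Syt4 moved to -0.14 and Syt5 to -0.15.

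Syt13 went the other way, at 124214, 122814 and 126376 normalized counts in controls and 134732, 134983 and 138189 in knockouts. All 3 knockouts exceeded all controls by more than the spread within either group, for a log2 fold change of 0.13 ± 0.06 and a DESeq2 adjusted p of 0.306, or 0.0330 without control replicate 3 and up to 0.722 in the 11 alternatives in which it did not pass. Because Syt13 outweighs its relatives, its share of the summed RPKM of the 7 synaptotagmin genes was 71.2%, 71.0% and 70.0% in the controls and 74.2%, 74.1% and 74.4% in the knockouts. The shares of Syt4, Syt5, Syt7 and Syt9 lay below the controls in each knockout library, that of Syt7 at 12.5 ± 0.103% and 11.4 ± 0.190%. A share compares genes within a library and shows unequal change, not which gene changed. Doc2b, a soluble high-affinity calcium sensor, had 977, 1051 and 912 normalized counts in controls and 1083, 1120 and 1173 in knockouts, a log2 difference of 0.20 ± 0.11 (adjusted p = 0.484). Syt11 and Syt1 overlapped between the groups.

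Rab27 and Rab3 GTPases sit on granules and recruit the effectors that tether them. Rab27a, the main Rab27 of islets, was at 27177, 28871 and 29398 normalized counts in controls and 32133, 31211 and 31529 in knockouts. Every knockout library was higher, by 0.15 ± 0.06 on the log2 scale (DESeq2 adjusted p = 0.263; 0.0274 without control replicate 3 and up to 0.795 in the 11 alternatives in which it did not pass). Rab27b was scarce, at 300, 551 and 537 in controls and 520, 496 and 561 in knockouts, and made up 0.582 ± 0.159% and 0.60 ± 0.0365% of the Rab27 level per length. Control replicate 1 alone was low for it, and the fold change turned from 0.19 to -0.05 without that library.

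Rab3a, the vesicle Rab of neurons and beta cells, lay on the lower side, at 9336, 10081 and 11568 normalized counts in controls and 8335, 8606 and 9264 in knockouts. The groups did not overlap, although the highest knockout value came within the control spread of the lowest control, and the log2 fold change was -0.24 ± 0.09 (DESeq2 adjusted p = 0.197). Its share of the 4 Rab3 genes per length was 41.1 ± 0.776% in controls and 37.7 ± 1.32% in knockouts. Rab3b was lower in each knockout library too, at -0.17 ± 0.10, and Rab3c, at -0.25 ± 0.14, overlapped. Without control replicate 2 the Rab3b value was -0.07, and that of Rab3c was -0.13 without knockout replicate 1 and -0.41 without knockout replicate 3. Without control replicate 3, Rab3a moved to -0.15. Rab3d, the Rab3 of acinar zymogen granules, was at 16981, 15866 and 23182 in controls and at 18798, 19403 and 18871 in knockouts. Control replicate 3 stood above all other libraries, and without it the log2 fold change went from 0.03 to 0.21 with an adjusted p of 0.00664 in DESeq2. Rab37 overlapped, at -0.02.

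Sytl4, on chromosome X from 133936385 to 133981812 on the minus strand (GRCm38), was the only gene of the set that passed. It encodes granuphilin, an effector of Rab27a and Rab3 that docks granules at the plasma membrane through syntaxin and Munc18 and restrains their fusion. The controls had 34628, 33620 and 33114 normalized counts of it and the knockouts 39466, 38522 and 39448. The means were 33787 ± 771 and 39146 ± 540, every knockout library lay above every control, and the gap was wider than the range within either group. Sytl4 rose by a log2 fold change of 0.21 ± 0.06 (SE), or 15.9% with a 95% interval from 6.97% to 25.5% (DESeq2 adjusted p = 0.0200). The adjusted p was 0.331 in edgeR, 0.0583 with the replicate number as a block, 0.228 without knockout replicate 1 and 0.0982 without knockout replicate 3, so the call was lost under these 4 of 12 alternatives while the fold change stayed between 0.20 and 0.23 in all 12. Since Xist and the Y-linked genes split the libraries in the same way, an effect of genotype and one of sex on this X-linked gene cannot be told apart. Sytl5, a relative that is also X-linked, was at 3224, 2998 and 3109 in controls and 3047, 3143 and 2800 in knockouts, which overlapped.

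The other Rab effectors did not pass. Rph3al (Noc2), which links Rab3 and Rab27 to the exocytic machinery, was at 14961, 16100 and 18229 normalized counts in controls and at 14240, 15009 and 14215 in knockouts. The ranges overlapped narrowly, and the log2 fold change was -0.18 ± 0.09 (DESeq2 adjusted p = 0.380), or -0.10 without control replicate 3. Rims2, an active-zone scaffold that binds Rab3 and couples granules to calcium channels, was at 8447, 7466 and 8002 in controls and 7601, 7869 and 7616 in knockouts, with an interval from -12.8% to 6.85%. Sytl4 made up 82.4 ± 0.404% of the summed RPKM of the 3 synaptotagmin-like genes in controls and 85.0 ± 0.801% in knockouts, without overlap.

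None of the 6 genes of priming factors and complexins passed the test, and their intervals were of unequal width. Unc13a (Munc13-1), which opens syntaxin for SNARE assembly, was at 10113, 10355 and 11605 normalized counts in controls and 12134, 10698 and 12052 in knockouts, which overlapped. Cadps (CAPS1), the priming factor of dense-core granules, was at 20854, 20739 and 21650 in controls and at 21117, 21839 and 19488 in knockouts, with an interval from -10.3% to 8.70%. The interval of Unc13a ran from -3.33% to 22.4%, and that of Cplx1, described below for its spread, from -28.4% to 32.9%. Cadps2 was scarcer, at 1836, 1805 and 2139 in controls and 1923, 2277 and 2151 in knockouts, also with overlap. Cplx2, at 88684, 91809 and 90284 in controls and 87649, 87520 and 85055 in knockouts, did not overlap but differed by only -0.06 ± 0.06 (DESeq2 adjusted p = 0.819). Of these 6 genes, 0 had an unadjusted p under 0.05.

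None of the 4 granule membrane genes passed the test. Ptprn was at 65958, 62385 and 71629 normalized counts in controls and 67880, 72188 and 64926 in knockouts, and Ptprn2 had means of 119639 ± 12031 and 119563 ± 6590. The groups overlapped for both genes, and the interval for Ptprn2 ran from -11.4% to 12.8%. Sv2a, a synaptic vesicle glycoprotein gene, overlapped too, at 0.10 ± 0.10 (-0.00035 without control replicate 2 and 0.17 without control replicate 3).

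Slc18a2, the vesicular monoamine transporter VMAT2, was among the 3 scarcest genes and was one of 5 whose knockout libraries differed among themselves by more than 1.4-fold. It was at 188, 300 and 284 normalized counts in controls and at 124, 219 and 321 in knockout replicates 1 to 3. Cplx1, the neuronal complexin, was tight in controls, at 795, 831 and 764, and ran over 461, 848 and 1024 in knockouts. Sytl2 was at 670, 737 and 830 in controls and 417, 617 and 792 in knockouts, Syt1 at 1483, 2153 and 2331 in knockouts and Rab3c at 1906, 2281 and 2814. In all 5 genes knockout replicate 1 was the lowest of the knockouts and replicate 3 the highest. For the 43 genes the highest knockout library exceeded the lowest by a median of 1.11-fold and the highest control the lowest by 1.15-fold. The ratio was at most 1.2 for 37 genes in knockouts and 27 in controls, and above 1.4 for 3 genes in controls, Rab27b, Slc18a2 and Rab3d. Knockout replicate 1 was the lowest of the knockouts in 16.

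The neurofilament genes Nefl and Nefm, markers of neurons, had the same highest and lowest knockout library, with Nefl at 757, 1255 and 1672 normalized counts and Nefm at 973, 1283 and 1847 in the knockouts. Elavl4, another neuronal marker, had the same order but differed by only 1.08-fold, at 4540, 4674 and 4921. The glial genes Gfap and Sox10 also had this order, with ratios of 2.42 and 1.38, while S100b was lowest in knockout replicate 1 and highest in replicate 2. All 4 neuronal markers were detected in each library, and their summed level ran from 16.4 to 16.8 RPKM in controls and from 12.6 to 18.3 in knockouts. The 4 glial markers summed to between 6.83 and 9.37 RPKM in controls and between 6.53 and 8.69 in knockouts. Of the mast-cell markers, Mcpt4 was at 0 in every library, and Cpa3 and Cma1 were at most 7.93 and 2.00 normalized counts. Kit, also on the list, rose by 0.51 (DESeq2 adjusted p = 0.00165). The part of neurons, glia and mast cells in the spread of these 5 genes was not tested. Left out in turn, knockout replicate 1 moved the log2 fold change of Slc18a2 from -0.22 to 0.07 and that of Sytl2 from -0.29 to -0.08, and without knockout replicate 3 the Sytl2 value was -0.53. Syt1 moved from -0.18 to -0.0098 and Cplx1 from -0.04 to 0.23 without knockout replicate 1, and to -0.31 and -0.29 without knockout replicate 3.

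**Figure D4:**
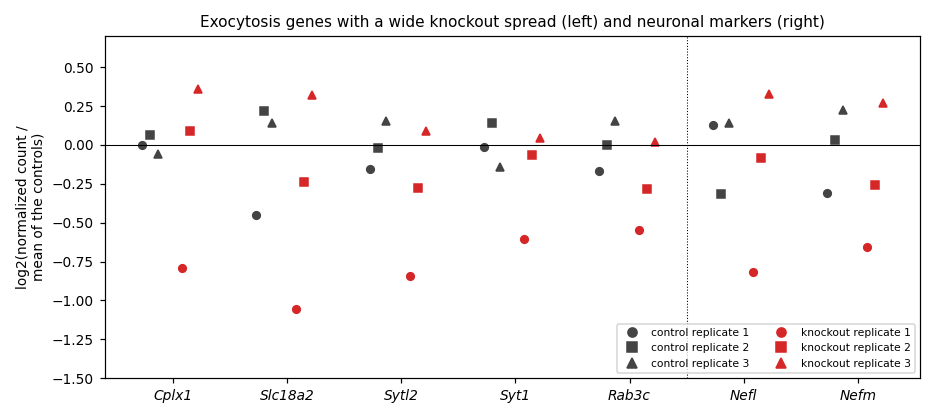
Log2 ratio of each library to the mean of the controls for the 5 exocytosis genes with the widest spread among knockouts (left of the dotted line) and the neuronal marker genes Nefl and Nefm (right). Knockout replicate 1 (red circle) is the lowest of the knockouts and knockout replicate 3 (red triangle) the highest for every gene plotted.

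A further 74 exocytosis genes outside the set were read beside it, among them other SNAREs, the exocyst, liprins and active-zone proteins. Of these, 71 had enough counts to be fitted, 1 was lower with an adjusted p under 0.05 and 0 were higher, or 1.43% of the 70 with an adjusted p beside 2.19% of all genes (0.657% lower), with a median log2 fold change of -0.01. The 1 was Vamp7, a SNARE of late endosomes and lysosomes that is insensitive to tetanus toxin. It was at 3960, 3872 and 4080 normalized counts in controls and 3037, 2927 and 3302 in knockouts, so all knockouts were well below all controls. Vamp7 fell by 0.36 on the log2 scale (SE 0.08, DESeq2 adjusted p = 0.00143; edgeR adjusted p = 0.139), a change of -22.2% with an interval from -30.4% to -13.1%. In the annotation it lies on a scaffold that carries no chromosome name, so a place on chromosome X could not be read from it. Since Xist and the Y-linked genes split the libraries in the same way, an effect of genotype and one of sex on Vamp7 cannot be told apart. Nsf, the ATPase that takes spent SNARE complexes apart, overlapped, at -0.07 ± 0.07 (-0.01 without control replicate 3). Without control replicate 3, 5 of the 67 with an adjusted p passed (7.46%), beside 6.28% of all genes tested in that fit.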

How the data were processed

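The authors deposited counts per gene, not normalized, for 6 islet libraries. The submitters' processing notes name FastQC, STAR, featureCounts, DESeq2 and mm10; settings, strand and versions are not given in the sources used here. All 55536 gene rows match GENCODE M21 (GRCm38), which gave coordinates and exon lengths. Without strand, Syt4 and 8 further set genes with antisense exon overlap (Stx4a, Syt7, Doc2b, Rab3a, Rab3b, Unc13a, Ptprn, Slc18a2) are uncertain, as is Rab27a, which overlaps Gm27186. Nothing shows separate cultures or animals, so p-values measure only the spread between these libraries.

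DESeq2 1.42.0 (R 4.3.3; genotype alone, Wald test, median-of-ratios size factors, genes with at least 10 counts in total, Benjamini-Hochberg over all genes, threshold 0.05) was the main test, as the series' design text states; alternatives were edgeR 4.0.16, TMM factors, no or a stricter count filter, no independent filtering, a replicate block and leaving out each library. Scripts were tested on simulated data. Normalized counts are counts divided by size factors. Described in full were genes past the threshold, the 5 most positive and 5 most negative fold changes and 15 fixed genes, others by group; Vamp3, Syt4, Rab3b, Rab3d, Stx3, Cplx1, Cplx2, Syt1, Rph3al, Ptprn2, Sytl5 and single marker genes were added after their values were seen. A few further values are not reported here. Set and lists were chosen with earlier results of these data known.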

Additional observations from a re-analysis of the deposited data

How the results depend on the processing

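For the 43 exocytosis genes, the number higher in the knockouts was 1 with DESeq2 and 0 with edgeR or with the replicate number as a block; across the 6 fits that each left out 1 library it ran from 0 to 4 (of 6 called in both directions), the 4 without control replicate 3 and 0 without knockout replicate 1 or 3. The number lower was 0, 1 with the replicate block, and from 0 to 2 with 1 library left out. For the 74 further genes the count of 1 became 0 with edgeR, 2 with TMM factors, 2 without a filter and 2 with the replicate block, and ran from 1 to 5 with 1 library left out. Over all genes the 389 calls became 29 with edgeR, 405 with the replicate block, and from 153 to 952 with 1 library left out, the 153 without knockout replicate 1 and the 952 without control replicate 3. The median log2 fold change of the 43 genes stayed between -0.055 and -0.029 under the 12 alternatives. Of 300 single-gene results under alternatives, over 25 genes, 281 kept direction and side of the threshold, 5 became weaker, 8 stronger and 6 reversed. The reversed ones were of genes that never passed: with 1 library left out, Cadps ran from -0.053 to 0.026 (0.0016 without control replicate 3), Ptprn from -0.0099 to 0.091 (-0.0042 without knockout replicate 2), Rab27b from -0.05 to 0.331 and Slc18a2 from -0.591 to 0.069. Over all 43 genes, 12 changed sign in at least 1 alternative (also Snap23, Vamp4, Rab3d, Rab37, Unc13b, Cplx1, Ptprn2 and Sv2a), and the groups overlapped for each of the 12. The cause was not tested.

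Pairing by replicate number was not seen in the data: correlations of same-numbered libraries' deviations from the group means were -0.048, -0.059 and 0.010 over 15811 genes, so the replicate block was not taken as a pairing. At this depth the 3 libraries per genotype limit the precision.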
